A study of Mus musculus with 10 samples.

Results

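Of the 123366 wild type AHR peaks on chromosomes 1 to 19, X and Y, 921 (0.747%) lay within exons away from promoters. A peak was counted here when its midpoint fell in an exon of GENCODE release M21 on the mm10 assembly. Midpoints from 1000 bp upstream to 100 bp downstream of any transcript start were left out, as were those from 100 bp upstream to 1000 bp downstream of any transcript end. The 921 exonic peaks comprised 14 in coding exons, 390 in untranslated exons and 517 in exons with no coding role. The untranslated group held 25 peaks in 5′ untranslated exons and 365 in 3′ untranslated exons. No filter on low values was applied, so all 921 are accounted for below.

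DNA bound by the aryl hydrocarbon receptor (AHR) was enriched with an antibody and sequenced (ChIP-seq) in mouse colon organoids, self-renewing cultures of the gut epithelium. All cultures were kept in WENR medium and exposed to 5 nM FICZ, an AHR ligand, for 1 h. Wild type organoids gave 4 AHR ChIP and 4 input libraries, and AHR KO organoids gave 1 ChIP and 1 input library, input being sheared chromatin without antibody. Wild type peaks stand in 1 list for all 4 cultures and AHR KO peaks in another, so no peak has a value per culture and no difference between genotypes has a replicate check. The study's methods derive AHR KO organoids from Vil Cre Ahr fl/fl mice, in which the villin promoter drives Cre in intestinal epithelium, so the deletion was made in the animal before culture. Their controls were WT littermates on a C57BL/6 background. The methods name 4 biological replicates for both genotypes, and the labels do not say how many cultures the single AHR KO libraries hold. The ages of the donor mice were not given in the sources used here, and AHR loss in the KO organoids could not be checked in lists of peaks.

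Once a ligand binds AHR, it enters the nucleus and pairs with ARNT. The pair binds a short DNA word, TNGCGTG, whose core is GCGTG, where N is any base. Coding exons carry the protein sequence and hold few simple repeats, whereas untranslated exons and introns hold many more, among them CA repeats, which are long runs of alternating C and A (G and T on the opposite strand).

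The 30-base stretches below show the sequence under exonic peaks of each class. They were read from GRCm38, the same sequence as mm10, on the strand of the gene and around the copy nearest to the midpoint of the full AHR word or, failing that, of its core or of a CA unit. Capitals mark 1 copy of CACACA or TGTGTG, or 1 copy of GCGTG or of TNGCGTG in either orientation, and a line without capitals holds none of them. The first set gives coding-exon peaks, to show the CA runs in or beside coding sequence and the peaks that lack them.
6030445D17Rik, chr4:136462288-136462317, + strand: ctcaacacacacaCACGCgcacatgcacac
Dync1li1, chr9:114719954-114719983, + strand: tgtagttctcttaatCACACAcacacacac
Ankib1, chr5:3704495-3704524, − strand: taagttttaaagTGTGTGtgtgtgtgtgtg
Gm47289, chr9:119160700-119160729, + strand: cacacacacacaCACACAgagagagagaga
Ltbp1, chr17:75282466-75282495, + strand: tgaagaaattcataatggTGTGTGtgtgtg
Ctso, chr3:81946434-81946463, + strand: aggtaactgacgTGTGTGtgtgtgtgtgtg
Rnd1, chr15:98672468-98672497, − strand: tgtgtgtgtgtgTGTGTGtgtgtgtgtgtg
Trub1, chr19:57485376-57485405, + strand: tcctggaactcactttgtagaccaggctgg
Gm10801, chr2:98663854-98663883, + strand: ttccatgtcctacagtggacatttctaaat
Wdr66, chr5:123254140-123254169, + strand: agaggaggggaaggggaaggaggaggagga
Akap5, chr12:76329407-76329436, + strand: gctacagttggcCACACAgagaaagtcaca

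The second set gives the 4 highest untranslated-exon peaks, all in 3′ untranslated exons, and that of Rtbdn, the highest in a 5′ untranslated exon, and the third gives peaks that hold the full AHR word.
Hes7, chr11:69123747-69123776, + strand: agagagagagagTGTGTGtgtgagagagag
Cacfd1, chr2:27019750-27019779, + strand: agtatgatgtggTGTGTGtgtgtgtgtgtg
Ceacam19, chr7:19876574-19876603, − strand: tgcgtgcatgcgtGCGTGcatctgtgtctg
Shq1, chr6:100571270-100571299, − strand: tgtgtgtgtgtgtGCGTGtgtgtgcgtgcg
Rtbdn, chr8:84951350-84951379, + strand: tacacacacactCACACAcatgcacacatg

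Gstt3, chr10:75780370-75780399, − strand: cagtgtccaggcTTGCGTGccattagttgt
N6amt1, chr16:87365284-87365313, + strand: acacgctacacaCACGCTAcacacacacac
Smok2b, chr17:13230459-13230488, + strand: ttttaagtttatTTGCGTGtgagtaccttt
Igfbp4, chr11:99053413-99053442, + strand: ctctggtgtagtTTGCGTGcatgcgtgcgt
Wbp1l, chr19:46656238-46656267, + strand: agtgatgttggaTGGCGTGtgtgtgtgtgt

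Coding exons were almost free of AHR peaks. They held 14 midpoints in 25.5 Mb, which is 0.549 peaks per Mb (exact 95% Poisson interval 0.30 to 0.921). Introns held 48.5 per Mb (48.1 to 49.0), 88.4 times as many per length. The 3′ untranslated exons held 18.6 per Mb (16.8 to 20.6), 2.61 times fewer than introns. The 5′ untranslated exons held 12 per Mb (7.74 to 17.7) and noncoding exons 14.9 per Mb (13.7 to 16.3). Intervals cover counting error only, since peaks are not replicates. All exonic classes together lay at 11.3 per Mb (10.5 to 12), below the 38.3 per Mb of start zones and the 36.8 per Mb of end zones.

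The size of the coding gap depended on how a peak was placed. Counted by base pair instead of by midpoint, peaks covered 871 bp per Mb of coding exon and 12923 bp per Mb of intron, a ratio of 14.8. In total 607 wild type peaks (0.492%) had at least 1 coding base, with a median of 36 coding bases, and for 421 of them the midpoint lay in an intron. Coding bases made up 0.117% of the bases in wild type peaks and 1.38% of the sequenced genome.

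**Figure D1:**
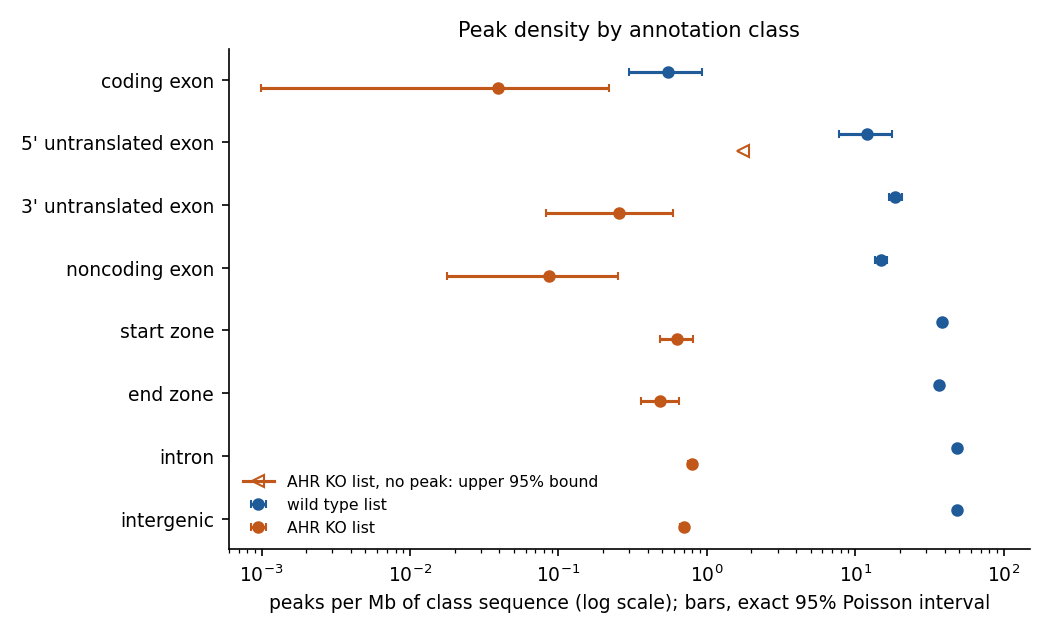
Peaks per Mb (log axis) by annotation class for the wild type and AHR KO lists, with exact 95% Poisson intervals. The wild type list falls from 48.5 per Mb in introns to 18.6 in 3′ untranslated and 0.549 in coding exons, and the AHR KO list has 1 peak in coding exons and none in 5′ untranslated exons, where the triangle marks the upper bound of 1.77 per Mb.

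Introns next to coding exons were also low in peaks. Intronic sequence within 50 bp of a coding base held 5.51 peaks per Mb (4.27 to 7), and that from 50 to 100 bp held 19.3 (16.9 to 22.0). The density was 33.2 per Mb from 100 to 200 bp and 46.7 per Mb from 200 to 500 bp. From 500 to 1000 bp it reached 52.8 per Mb (51.1 to 54.6), and it stayed at 49.4 to 50.2 per Mb farther out. The share of 200 bp grid windows with a CA repeat moved with it, from 0.462% in coding exons to 1.49% within 50 bp and 4.20% from 500 to 1000 bp. The part of CA repeats in this profile was not tested.

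**Figure D2:**
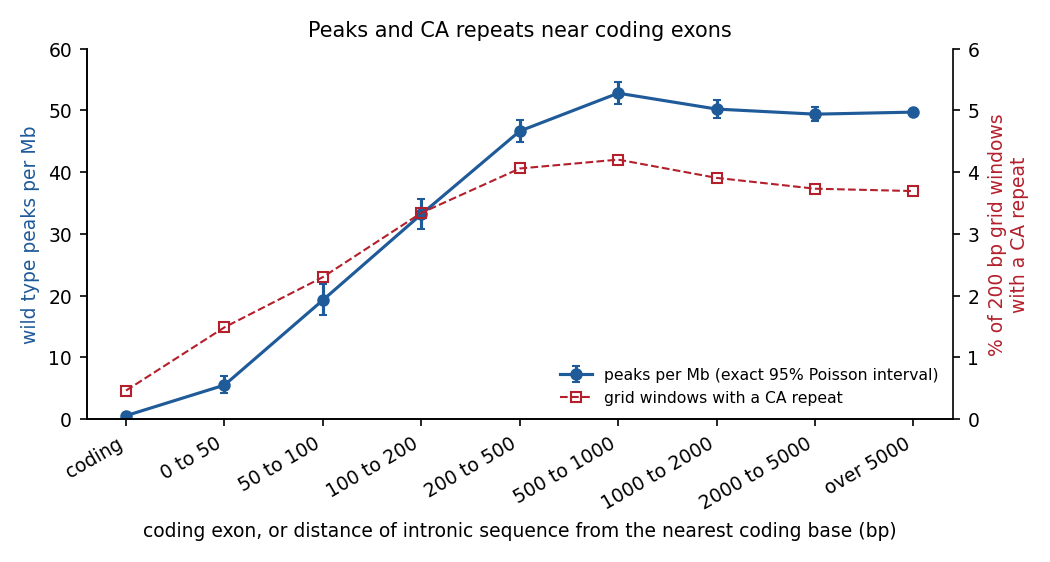
Wild type peaks per Mb with exact 95% Poisson intervals (left axis) and share of 200 bp grid windows with a CA repeat (right axis), in coding exons and in introns by distance from the nearest coding base. Both are lowest in coding exons, at 0.549 per Mb and 0.462%, and highest from 500 to 1000 bp, at 52.8 per Mb and 4.20%.

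The 14 coding-exon peaks fell in 14 genes and had scores from 4.32 to 13.6. The score is the authors' value per peak, which carries no label and was read from its range as fold enrichment over background. The highest lay in the only exon of 6030445D17Rik, a predicted protein-coding gene, at 13.6 with its midpoint 127 bp from the transcript start, just outside the start zone. It was the coding-exon peak in the top 10% of wild type scores, and no other reached that range. Next were Dync1li1 (a light intermediate chain of the dynein motor) at 6.65, Trub1 (a pseudouridine synthase) at 5.92 and Ankib1 (a ubiquitin ligase) at 5.65. The predicted genes Gm10801 and Gm10800 had 5.40 and 5.32, and Gm47289 and Ltbp1, a binding protein of latent TGF-β, both had 5.32. Ctso (cathepsin O) followed at 5.27 and Pam, a peptide-amidating enzyme, at 5.07. Celf4 (an RNA-binding protein) had 5.00 and Rnd1 4.98. Wdr66 (a WD repeat protein) had 4.96, and Akap5, an anchoring protein of protein kinase A, had the lowest, 4.32. The coding-exon median of 5.32 equalled that of all wild type peaks, 5.32.

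Most coding-exon peaks reached well beyond the coding exon. Of the 14, 9 had bases outside any exon, 5 lay wholly in exons and 2, those of Wdr66 and Akap5, were wholly coding. The exon with the midpoint was internal in 9, last in 3 and the only one in 2, with a median length of 216 bp. It was as short as 45 bp in Dync1li1, exon 10 of 13, where the peak was 478 bp wide and only 9.41% of it was coding. Across the 14 peaks, 2606 of 5262 bp (49.5%) were coding.

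CA copies of these peaks lay more often outside coding bases, while masked bases were divided about evenly. The peaks held 74 copies of CACACA or TGTGTG, of which 48 lay outside coding bases. Dync1li1 had 11 copies, Ankib1 and Ltbp1 8 each, Celf4 7 and Ctso 6, with none in coding bases. In these 5 genes the copies followed the exon on the gene's strand. Only 6030445D17Rik with 7 of 11, Gm47289 with 9 of 9 and Rnd1 with 8 of 9 had 3 or more copies in coding bases. In the 9 peaks with bases outside exons, a median of 0% of the coding bases and 53.2% of the other bases were soft-masked, the lower-case mark of repeats in the genome sequence. The masked share was higher outside coding bases in 7 of the 9, the exceptions being Gm10801 and Gm10800. Over all 14 peaks, 50.3% of coding and 53.0% of other bases were masked. Coding bases were masked more than the rest also in Trub1 (100% and 94.1%), Gm47289 (64.2% and 0%) and Rnd1 (51.7% and 10.9%), and those of Wdr66 were 100% masked.

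**Figure D3:**
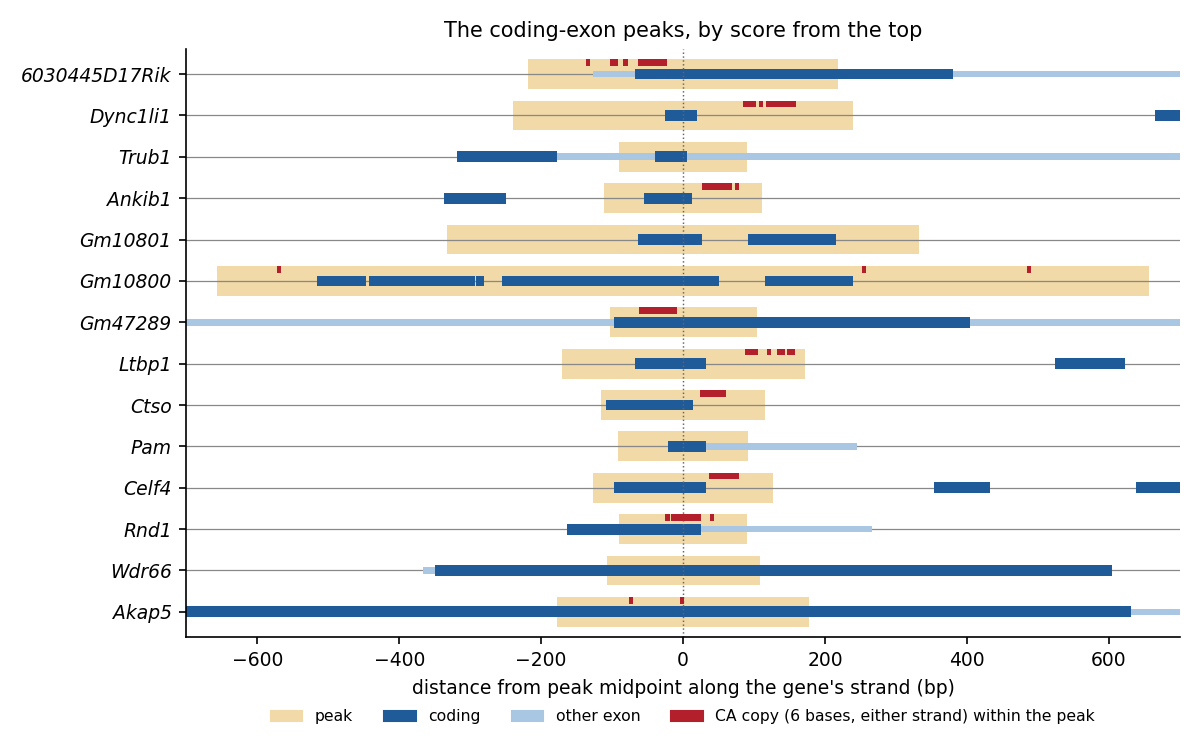
Map of the 14 coding-exon peaks in order of score, by distance in bp from the peak midpoint along the strand of the gene, with the peak, coding sequence, other exon sequence and CA copies. The copies of Dync1li1, Ankib1, Ltbp1, Ctso and Celf4 sit just downstream of the coding exon, those of 6030445D17Rik, Gm47289 and Rnd1 overlap it, and 48 of 74 copies lie outside coding bases.

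Coding-exon peaks with under 3 CA copies in the 200 bp window were of several kinds. Among them, the whole peaks of Dync1li1, Ltbp1 and Gm10800 held 11, 8 and 3 copies. The 200 bp window of Trub1 was 90% masked, and a 50-base word in it occurs 8491 times in the genome. The window of Wdr66 was 100% masked and purine-rich on the coding strand, as its printed stretch shows. Gm10801 and Gm10800 lie next to each other on chromosome 2 (peaks at chr2:98663537-98664201 and chr2:98666130-98667442), with windows 79% and 97% masked. The window of Pam was 35% masked and held 1 GCGTG. Only the windows of Ltbp1 (23.5%) and Akap5 (0%) were under 25% masked, and in Akap5 4 of 7 sampled 50-base words (57.1%) still occur more than 1 time in the genome. None of the 14 windows held TNGCGTG (0 of 14, where 3 counts would be 21.4%), and 3 held GCGTG.

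The 390 untranslated-exon peaks had a median score of 5.59, with quartiles of 4.69 and 6.42, and a median width of 215 bp. Of the 365 in 3′ untranslated exons, 353 lay in the last exon of their transcript, and 364 lay wholly in exon sequence. The last exons were long, with a median of 3848 bp. Of the 25 in 5′ untranslated exons, 20 lay in the first exon, with a median of 200 bp from the nearest start of their gene, so most lay just past the start zone. The 3′ untranslated exons held 13.2% of their peaks in the top 10% of wild type scores.

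The highest untranslated-exon peak lay in the 3′ untranslated exon of Hes7, a repressor of the segmentation clock, with a score of 15.6. It was followed by Cacfd1 (13.3), Ceacam19 (12.2), a member of the CEA family, Shq1 (11.1), an assembly factor of small nucleolar RNPs, and Slc16a10 (10.6), an aromatic amino acid transporter. No other untranslated-exon peak reached 10. The next were Bpifc (9.86), the RNA demethylase Alkbh5 (9.64), Rtbdn (9.64), Kank2 (9.32) and Tnr (9.23), which codes for tenascin-R. That of Rtbdn was the highest in a 5′ untranslated exon. Of these 10 windows, 8 held a CA repeat, here CACACA or TGTGTG in 3 or more copies that do not overlap within 200 bp. Hes7 and Ceacam19 had 2 copies each, and Ceacam19 had 7 copies of GCGTG. The window of Shq1 had 18 CA copies and 16 copies of GCGTG.

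Of the 517 noncoding-exon peaks, 205 lay in genes that also make protein, 186 of all 517 being in retained-intron transcripts. A further 118 lay in TEC transcripts, from loci still to be experimentally tested, and 100 in lincRNA transcripts. The highest was that of Gm44936, a TEC gene, at 23.9, the highest of all 921 and the 30th in the wild type list. Next were retained-intron exons of Gstt3 (15.2), a glutathione S-transferase, Ucp2 (13.5), a mitochondrial carrier, Tnik (12.6), a kinase, and Rp9 (12.6). All 5 windows held a CA repeat, with 8 to 13 copies.

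Few genes held more than 1 exonic peak. The 921 peaks fell in 872 genes, 826 with 1, 44 with 2 and 2 with 3 or more. The 4 of Gm4117 (scores 3.66 to 5.98) lay in a last exon of 52270 bp, and the 3 of D1Ertd622e (6.58 to 6.90) in a last exon of 40044 bp. By chromosome, the counts ran from 23 on chromosome 18 to 83 on chromosome 7 among autosomes, with 1 each on X and Y. They were not set against all wild type peaks or exon length per chromosome, so they show no trait of exonic peaks.

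Most exonic peaks held CA repeats. A CA repeat was present in 669 of 921 windows (72.6%, 95% Wilson interval 69.7 to 75.4), against 57.2% of the other wild type peaks. The difference was 15.5 percentage points (95% Newcombe interval 12.5 to 18.3). By class the share was 6 of 14 in coding, 17 of 25 in 5′ untranslated (68%), 275 of 365 in 3′ untranslated (75.3%) and 371 of 517 in noncoding exons (71.8%). Over the whole peak instead of the 200 bp window, 9 of 14 coding-exon peaks had 3 or more copies, among them Dync1li1, Ltbp1 and Gm10800. Windows of the same exon classes that touched no peak held a CA repeat in 1.22% of cases, 0.409% in coding and 1.66% in 3′ untranslated exons. Members without a CA repeat numbered 252, and 232 of these (92.1%) were at least 50% masked. In all, 901 of the 921 (97.8%) had a CA repeat or were at least 50% masked, against 10.5% of exonic windows touching no peak and 98.8% of the other peaks.

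Both orientations of the repeat were found. Among members with a CA repeat, 330 read CA and 339 read TG on the sense strand. Some windows held both and were counted by the orientation with more copies. Median scores were higher with more copies, at 4.66 in the 252 members with under 3 copies, 5.32 in the 67 with 3 to 5, 5.59 in the 497 with 6 to 11 and 6.98 in the 105 with 12 or more. These are descriptions, with no test across members.

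The 50-base words of the windows were often repeated in the genome. At least 1 of 7 sampled words occurred more than 1 time in 648 of 921 windows (70.4%), against 76.0% of the other peaks and 13.8% of exonic windows touching no peak. In 35 windows (3.80%) all 7 words did. The remaining 273 members had no repeated word among those sampled, 3 of them in coding and 100 in untranslated exons, and 91.2% of the 273 held a CA repeat.

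**Figure D4:**
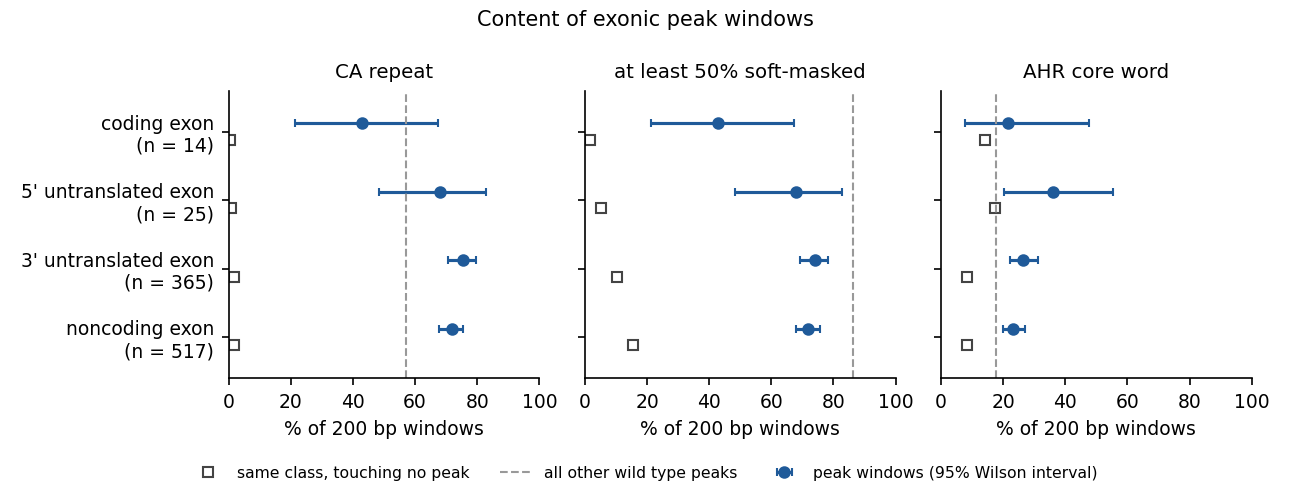
Share of 200 bp windows around exonic peak midpoints with a CA repeat, with at least 50% soft-masked bases and with the AHR core word, by exon class, with 95% Wilson intervals. Squares give windows of the same class that touch no peak and dashed lines the other wild type peaks, so that for CA repeats the 3′ untranslated class stands at 75.3% beside 1.66% and 57.2%.

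Windows with like numbers of CA copies were compared between exons and introns over every 200 bp window of a fixed grid. A window took the class of its centre, while copies were counted over all 200 bp. The copies of a coding window can therefore lie in the flanking intron, and coding and intronic repeats themselves were not compared. Of windows with a CA repeat, 7.97% (6.04 to 10.4) in coding exons, 15.6% in 3′ untranslated exons and 19.9% in introns had the centre in a peak. Within the bins of 3 to 5 and of 6 to 11 copies, the intervals of the difference between coding and intronic windows spanned 0, whereas without any copy coding windows were lower. With 6 to 11 copies the values were 24.1% and 30.5%, a difference of -6.39 points (-13.5 to 2.48), and with 3 to 5 copies 4.36% and 6.06%, a difference of -1.70 points (-3.20 to 0.514). Differences of 3′ untranslated and noncoding exons from introns whose intervals did not include 0 all lay below introns. With 3 or more copies they were -4.31 points (-5.85 to -2.64) and -6.79 points (-7.93 to -5.57). With 3 to 5 copies the difference from introns was -1.95 points (-2.95 to -0.658) in 3′ untranslated and -1.55 points (-2.37 to -0.568) in noncoding exons. With 6 to 11 copies it was -1.89 points (-5.06 to 1.49) and -4.21 points (-6.79 to -1.46). In 5′ untranslated exons 19 of 53 windows with 6 to 11 copies (35.8%, 24.3 to 49.3) were in peaks, an interval that includes the intronic 30.5%. Windows with no copy were in peaks in 0.0464% of cases in coding exons and 0.605% in introns, a difference of -0.559 points (-0.573 to -0.542), and the difference was -0.467 points in both 3′ untranslated (-0.492 to -0.437) and noncoding exons (-0.487 to -0.445). With 12 or more copies 87.9% of 3′ untranslated, 82.3% of noncoding and 86.0% of intronic windows were in peaks, and coding exons had no such window. The 3′ untranslated difference from introns was then 1.93 points (-8.91 to 8.07).

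Away from CA repeats the classes also differed in their masked share. Windows without a CA repeat and under 25% masked made up 92.6% of coding and 57% of intronic windows. Among these, 0.0195% (0.0130 to 0.0292) of coding and 0.0423% (0.0400 to 0.0447) of intronic windows had the centre in a peak, a difference of -0.0228 points (-0.0298 to -0.0128). In 3′ untranslated exons the share was 0.0314%, whose difference from introns spanned 0 (-0.0218 to 0.00544). In noncoding exons it was 0.0255%, a difference of -0.0168 points (-0.0248 to -0.00561), and in 5′ untranslated exons 0.0461%, a difference of 0.00377 points (-0.0245 to 0.0762). Of windows without a CA repeat that were at least 50% masked, 2.26% in introns were in peaks. The share was 1.28% in coding, 1.04% in 3′ untranslated and 0.681% in noncoding exons, with intervals of the difference below 0. In 5′ untranslated exons it was 1.87%, a difference of -0.386 points (-1.24 to 1.15). From 25 to 50% masked, the coding difference spanned 0 (-0.134 to 0.0661), as did the 5′ untranslated one (-0.176 to 0.407). The 3′ untranslated (-0.119 points) and noncoding (-0.118 points) differences there lay below 0.

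**Figure D5:**
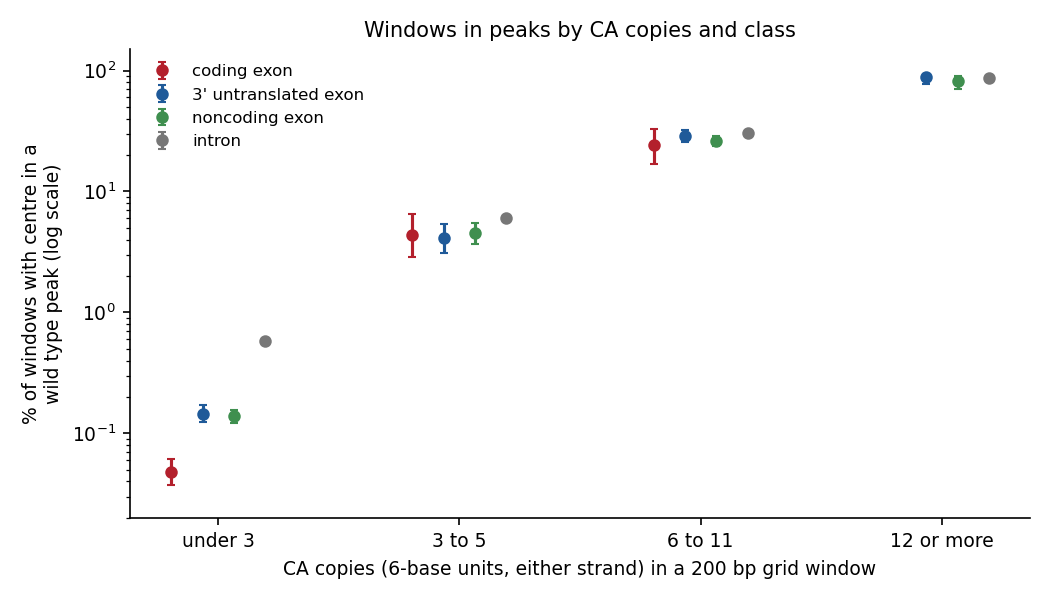
Share of 200 bp grid windows with the centre in a wild type peak (log axis), by number of CA copies (6-base units, either strand) and class, with 95% Wilson intervals. Coding and intronic windows lie at 0.0480% and 0.574% under 3 copies but at 24.1% and 30.5% with 6 to 11 copies, and coding exons have no window with 12 or more.

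The full AHR word was rare in exonic peaks and in other peaks. TNGCGTG was found in 27 of 921 windows (2.93%, 2.02 to 4.23), against 2.84% of the other wild type peaks, a difference of 0.0895 points (-0.825 to 1.39). It was present in 1.88% of exonic windows touching no peak, 1.05 points less (0.144 to 2.35). By class it was in 0 of 14 coding, 2 of 25 5′ untranslated, 16 of 365 3′ untranslated and 9 of 517 noncoding windows. In both untranslated classes together the share was 4.62%, 1.77 points above the other peaks (0.0944 to 4.34), while for 3′ untranslated exons alone the interval of the difference spanned 0 (-0.129 to 4.16). Among windows with a CA repeat the word was in 5.48% of untranslated and 1.63% of other peaks, a difference of 3.85 points (1.77 to 7.08). Without one it was in 2 of 98 untranslated windows (2.04%) against 4.46% of other peaks, a difference of -2.42 points (-3.91 to 2.68). In noncoding exons with a CA repeat the share was 1.62%, -0.0155 points from the other peaks (-0.895 to 1.85). The difference between windows with and without CA repeats was not tested. Of the 27 windows, 22 also held a CA repeat. GCGTG, which TNGCGTG contains, was found in 228 of 921 windows (24.8%), against 17.6% of the other peaks and 10.3% of exonic windows touching no peak. At least 3 copies stood in 44 windows (4.78%), against 2.36% of the other peaks, and runs such as that of Shq1 place GCGTG within TG repeats.

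The members with TNGCGTG, named after their values were seen, were led by Gstt3 at 15.2, with 1 word and 8 CA copies in a window 31% masked. The other 26 had scores from 3.85 to 7.31. In the 3′ untranslated group the highest were N6amt1, a methyltransferase, at 7.13 with 2 words, and Igfbp4, an IGF-binding protein, and Wbp1l, both at 6.31. The 5′ untranslated peaks with the word were those of Smok2b (6.57), a sperm motility kinase, and Pih1d1 (4.65). The only member over 7 with the word but no CA repeat was a second peak of Gm11373, a lincRNA, at 7.31.

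Members under 25% masked were rare, and those outside coding exons are named after their values were seen. They numbered 9 (0.977%, 0.515 to 1.85), against 0.450% of the other peaks, and 77.4% of exonic windows touching no peak were of this kind. They were led by 2410080I02Rik, a lincRNA, at 9.95 with 15.5% masked, no CA copy and 1 GCGTG, followed by Wdr26 (6.20), a WD repeat protein, in its 3′ untranslated exon. None of the 9 held TNGCGTG.

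The AHR KO list addresses which peaks the antibody gives in organoids without AHR. Of the 921 exonic peaks, 10 (1.09%, 0.591 to 1.99) overlapped an AHR KO peak by at least 1 bp. Over all wild type peaks 1.46% did so, and the exonic share differed from that of the other peaks by -0.380 points (-0.880 to 0.524). The 10 comprised 2 of 14 coding, 0 of 25 5′ untranslated, 5 of 365 3′ untranslated and 3 of 517 noncoding peaks. Conversely the AHR KO list held 9 exonic peaks of 1873, all of them overlapping a wild type peak, where 97.5% of all AHR KO peaks did. Its density was 0.0392 per Mb in coding exons (1 peak), 0.255 in 3′ untranslated exons (5 peaks), 0.0867 in noncoding exons (3 peaks) and 0.795 in introns.

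The shared members were wide, and most were dense repeats. Their median width was 621 bp against 215 bp for the other members, and their median score 8.97 against 5.32. Shared peaks were wide and high elsewhere too, with medians of 497 bp against 225 bp and 7.89 against 5.32 in introns. The 3′ untranslated ones were Cacfd1, Shq1, Slc16a10, the serum amyloid gene Saa4 (7.31) and Prkg1 (5.53), a cGMP-dependent kinase. The noncoding ones were Gm49151 (11), F630040K05Rik (10.9) and Pip4k2c (5.29). Each of these 8 had 12 or more CA copies in its window, as did 105 members in all. The coding ones, Gm10801 and Gm10800, had no CA copy in their windows. Their peaks were 665 and 1313 bp wide in the wild type list and 821 and 1446 bp in the AHR KO list. None of the 10 windows held TNGCGTG, and 1 of the 10 whole peaks, that of Shq1, held it outside its window. The other 911 members, 12 coding and 385 untranslated among them, overlapped no AHR KO peak. The lists also differ in their number of libraries, so loss of AHR and fewer libraries cannot be told apart as the source of an absent AHR KO peak.

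Exonic peaks were counted over lists of AHR and epithelial pathway genes. None of 8 AHR loop genes held one, which were Ahr, Arnt, Ahrr, Cyp1a1, Cyp1a2, Cyp1b1, Tiparp and Nqo1. Over all protein-coding genes 2.64% (578 of 21911) held at least 1. Among 10 Wnt genes it was Znrf3, a ubiquitin ligase that removes Wnt receptors, with a score of 5.98 in its 3′ untranslated exon and 8 CA copies. Among 10 annotated Yap/Tead genes it was Yap1, the co-activator of TEAD factors, with 4.65 in a retained-intron exon, with a window that was 100% masked. Ctgf and Cyr61 are not annotated under these symbols and were not looked up. None of 5 fetal-like and 9 differentiation genes held one. With 5 to 10 genes a list, the 95% intervals of these shares all include the overall share. Outside these lists, and chosen after their values were seen, the Wnt factor Lef1 had 2 exonic peaks (5.58 and 4.57) and the Wnt co-receptor Lrp5 had 1 at 9.13. The Lef1 peak at 5.58 lay in a retained-intron exon with 7 CA copies, and that at 4.57 in a 5′ untranslated exon with 6. The Lrp5 peak lay in an exon of a transcript annotated for nonsense-mediated decay. Its window had 17 CA copies and was 100% masked.

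By gene family, 41 of 1134 Olfr genes (3.62%, 2.68 to 4.87), which code for olfactory receptors, held an exonic peak, as did 11 of 371 Slc (2.96%), 8 of 394 Zfp (2.03%) and 1 of 102 Rpl and Rps genes (0.980%). The overall share was 2.64%, as above. None of 53 Krt, 45 Col and 68 Pcdh genes did, with upper 95% bounds of 6.76%, 7.87% and 5.35% that include the overall share, and 1 each did of 12 Muc and 39 Hox genes, which were Muc13 and Hoxc8. The highest in Olfr genes were Olfr1137 and Olfr961, both at 8.64 in 3′ untranslated exons, with 8 and 11 CA copies.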

How the data were processed

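AHR ChIP-seq and input libraries of colon organoids were sequenced as single-end reads, aligned by the authors to mm10 with BWA 0.7.15, marked for duplicates with Picard 2.1.1 and called for peaks with MACS2 2.1.1 against input, then annotated with HOMER 4.8. The deposited value of each peak, read from its range as the fold enrichment (a ratio) that the authors' caller gave, depends on depth and was used within a list only. The study's methods give an average read depth but none per library, and the treatment of reads with several matches was not given in the sources used here, although both affect calls in repeated sequence. Starts were taken as counted from 0, so printed starts have 1 added.

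Classes were assigned at the midpoint from GENCODE M21 in the order start zone, end zone, coding, untranslated, other exon, intron, intergenic. Lengths per class were counted by the same order, without assembly gaps. Sequence came from RefSeq GRCm38. Words were counted on both strands in 200 bp windows, and 7 words of 50 bases per window, 25 bp apart, were counted in the whole genome. Windows touching no peak were all those of a 200 bp grid. Shares have 95% Wilson, differences Newcombe and densities exact Poisson intervals (Python 3.11.15, scipy 1.17.1, statsmodels 0.14.6), which cover counting error only. No p-value was computed, since peaks are not replicates. Scripts were tested on simulated data.

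Named peaks were the 10 highest coding, 10 highest untranslated and 5 highest noncoding by score, those overlapping an AHR KO peak, coding-exon peaks under 25% masked, genes with 3 or more, and members of the gene lists. The remaining coding-exon peaks, other peaks under 25% masked, those with TNGCGTG and those of Lef1, Lrp5 and the Olfr genes singled out were named after their values were seen. The members and lists were chosen with earlier results of these data known. The comparisons by distance, by CA copies, by masked share, of the AHR word with and without CA repeats, of AHR KO overlap in the top 10% of scores and of repeats within coding-exon peaks were added after the lists were seen. Alternatives changed the placement rule, annotation, zones, score minimum, overlap, window, repeat and word definitions.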

Additional observations from a re-analysis of the deposited data

How the results depend on the processing

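Of 68 alternative values, 12 of them added after the data were seen, 43 stayed within 1.5 times the count or inside the main 95% interval and 25 moved. Reversal of a result was not checked. The exonic count of 921 fell to 608 with exons of protein-coding genes only, to 111 in the top 10% of scores and to 273 where all sampled 50-base words occur 1 time. The coding count of 14 became 5 for peaks wholly in exons and clear of the zones, 408 for any 1 bp of coding exon clear of the zones, 1 in the top 10% and 3 without repeated words. The untranslated count of 390 became 50 in the top 10% and 100 without repeated words. Coding density was 0.0392 per Mb in the top 10%, and the ratio of introns to coding exons was 14.8 by base pair. The share overlapping an AHR KO peak was 5.41% in the top 10%, against 8.84% of other peaks there (difference -3.44 points, -6.39 to 2.47). In the top 10% the CA repeat share was 89.2% of exonic, 100% of coding (1 window) and 90% of untranslated windows, and it was 91.2% of exonic windows without repeated words. The AHR word share moved to 24.8% of exonic and 26.9% of untranslated windows for the core, to 1.98% and 2.04% without a CA repeat (other peaks 4.46%), and to 1.80% and 0% in the top 10%. The masked share was 99% from 25% masked and 39.4% from 75% masked, and 93.5% of windows had a repeated word of 36 bases. Each of these alternatives takes a smaller, larger or differently defined set, and any other cause was not tested. No paired analysis was possible because replicates were not kept apart in either list, and leaving out each culture in turn was not run for the same reason. With 14 coding-exon peaks, shares in that class have wide intervals, 21.4% to 67.4% for CA repeats.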
